A study of Homo sapiens with 4 samples.

Results

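A group of 10 genes of the intestinal brush border was followed across sorted fractions of Huh7, an established human hepatocellular carcinoma line: the sucrase-isomaltase gene SI, the lactase gene LCT, the peptidase genes DPP4, MEP1A and MEP1B, the alkaline phosphatase gene ALPI, the receptor gene CUBN and the microvillus genes VIL1, CDHR2 and CDHR5. These 10 of 18377 measured genes were chosen by symbol, with their differences in both sorts already known from an earlier analysis of the same arrays, so every value below is a description and none is a test. The cells were parted by flow cytometry into CD133-positive and CD133-negative fractions, CD133 being the product of PROM1, and separately into ALDH-positive and ALDH-negative fractions, ALDH standing for aldehyde dehydrogenase. All fractions come from the same line, carry no stated genetic change or treatment, and were each measured on 1 array, 4 in all, in a series that sets cancer stem cells against other tumour cells. No difference has a replicate check.

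The brush border is the carpet of microvilli on the face of an absorptive cell that meets the gut lumen. Its membrane carries hydrolases that finish the digestion of sugars, peptides and phosphate esters, and its shape is held by actin bundles inside each microvillus and by cadherins that tie neighbouring tips together. Several of these proteins are also found on the proximal tubule of the kidney, and DPP4 and villin on the bile canaliculus of the hepatocyte. Sucrase-isomaltase and lactase are classical products of differentiated enterocytes, and SI is a textbook target of the transcription factor CDX2.

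The deposited values are log2 expression values. A floor was set at the median of all values, 4.98, because the files give no detection call. Of the 10 genes, 9 reached the floor on at least 1 array and 7 on all 4, while MEP1B was below it everywhere. Each had 1 probe set with that symbol alone. The arrays had medians over all probes between 4.92 and 5.04 and correlated with each other at 0.982 to 0.989. All 10 defining liver genes of the line, ALB and AFP among them, lay above the floor on every array. Of these APOH alone was past 2-fold, at -1.05 in the CD133 sort. TTR was just short of 2-fold in the other direction there, at 0.995, and differed by -0.58 in the ALDH sort. Of the 10 liver genes, 2 were above 0 in the CD133 sort and 8 below, and in the ALDH sort 5 and 5. The transcript of the sorted protein, PROM1, stood at 9.0 in CD133-positive cells, against 5.32 in CD133-negative cells, and at 7.11 in ALDH-positive cells, against 8.39 in ALDH-negative cells. ALDH1A1, the aldehyde dehydrogenase most often linked to the ALDH sort, differed by 0.04 between ALDH-positive and ALDH-negative cells, so transcripts did not check the labels of that sort.

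The genes of the group with the largest differences were all higher in CD133-positive cells and all lower in ALDH-positive cells. The DNA upstream of the start is shown for those past 2-fold in both sorts that the RefSeq promoter table holds. These are SI, CUBN and DPP4, while LCT, MEP1A, VIL1 and CDHR5 had no entry. The windows are the 250 bases before the start in GRCh38.p14, all on the minus strand and printed 5′ to 3′ as the gene reads. They lie at chr3:165078497-165078746 for SI, chr10:17129812-17130061 for CUBN and chr2:162074216-162074465 for DPP4. The windows of CUBN and DPP4 lie outside the gene, and that of SI lies inside its RefSeq span, which begins further upstream. Capitals mark matches to short motifs searched on both strands.
SI: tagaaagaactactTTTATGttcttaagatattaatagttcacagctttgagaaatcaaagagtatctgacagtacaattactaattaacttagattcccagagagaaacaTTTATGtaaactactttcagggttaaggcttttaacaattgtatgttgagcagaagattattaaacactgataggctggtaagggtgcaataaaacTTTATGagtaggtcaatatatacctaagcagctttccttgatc
CUBN: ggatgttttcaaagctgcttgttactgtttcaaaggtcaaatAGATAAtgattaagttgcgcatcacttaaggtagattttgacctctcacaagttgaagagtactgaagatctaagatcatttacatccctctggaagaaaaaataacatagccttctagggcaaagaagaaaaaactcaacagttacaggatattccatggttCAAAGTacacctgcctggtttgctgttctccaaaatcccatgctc
DPP4: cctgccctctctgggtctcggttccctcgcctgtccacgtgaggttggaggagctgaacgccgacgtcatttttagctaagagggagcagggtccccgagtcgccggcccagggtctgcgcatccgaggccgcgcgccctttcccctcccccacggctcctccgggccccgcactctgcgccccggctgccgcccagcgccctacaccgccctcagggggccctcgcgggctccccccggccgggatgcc

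The promoter letters differed between these genes. The CDX core TTTATG occurred at 3 places in SI, the nearest from -43 to -38 relative to the start, and in none of the other 5 of the 6 windows held for the group. CUBN held the GATA core AGATAA from -208 to -203 and the HNF4 core CAAAGT from -45 to -40. ALPI also carried CAAAGT, from -44 to -39, and MEP1B the TATA box TATAAA. Neither DPP4 nor CDHR2 held any of the motifs. DPP4 was the most GC-rich of the printed windows at 73.6%, against 31.6% in SI, 38.0% in CUBN and a median of 58.0% over all 35116 windows of the table. Among those windows TTTATG was present in 9.64%, AGATAA in 9.17%, CAAAGT in 10.3% and TATAAA in 10.7%. TTTATA, the reverse complement of the TATA box, shares all but its last letter with TTTATG, and no matches overlapped in the printed windows. A match describes the letters and shows no binding.

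The disaccharidases were far apart in both sorts, in opposite directions. SI, whose product splits sucrose and the branch points of starch, read 7.56 in CD133-positive cells, against 5.11 in CD133-negative cells (probe set 8091811). In the ALDH sort it read 6.30 in ALDH-positive cells, against 8.08 in ALDH-negative cells. The difference was 2.45 in the CD133 sort, or 5.46-fold higher, and -1.78 in the ALDH sort, or 3.44-fold lower. Of 11591 genes above the floor in the CD133 sort, 3 had a higher difference than SI, and 7 of 11879 had a lower one in the ALDH sort. SI was above the floor on every array, though close to it in CD133-negative cells.

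LCT, whose product splits milk sugar, followed the same course. It read 6.23 in CD133-positive cells, against 4.44 in CD133-negative cells (probe set 8055406), and the CD133-negative value lay below the floor. Set against the floor, CD133-positive cells exceeded CD133-negative cells at least 2.38-fold. In the ALDH sort it read 5.27 in ALDH-positive cells, against 7.39 in ALDH-negative cells, both above the floor, a difference of -2.11 or 4.33-fold lower. In that sort 1 gene above the floor had a lower difference.

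Of the peptidases, DPP4 and MEP1A were clearly above the floor and MEP1B was not. DPP4, which trims dipeptides from incretins and other peptides, read 8.89 in CD133-positive cells, against 6.88 in CD133-negative cells (probe set 8056222). It read 7.76 in ALDH-positive cells, against 9.25 in ALDH-negative cells. The difference was 2.01 in favour of CD133-positive cells, or 4.03-fold, and ALDH-positive cells were 2.82-fold lower. Every array was well above the floor.

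MEP1A encodes the alpha subunit of meprin, a zinc metalloprotease that can be shed from the membrane. Its level was 7.55 in CD133-positive cells, against 6.85 in CD133-negative cells (probe set 8120088), a difference of 0.70 that is short of 2-fold. It was 6.99 in ALDH-positive cells, against 8.35 in ALDH-negative cells, or 2.56-fold lower. The separation was thus past 2-fold only in the ALDH sort, and the difference between the sorts was not tested. MEP1B, the meprin beta subunit that anchors the complex, read 2.61 in CD133-positive cells, against 2.51 in CD133-negative cells, and 2.61 in ALDH-positive cells, against 2.89 in ALDH-negative cells (probe set 8020827). All 4 values lay far below the floor, so its differences of 0.10 and -0.28 carry no direction.

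ALPI, the intestinal alkaline phosphatase, which also removes phosphate from bacterial lipopolysaccharide, departed from the hydrolases above. It read 5.92 in CD133-positive cells, against 5.12 in CD133-negative cells (probe set 8049137), a difference of 0.80. In the ALDH sort it read 5.84 in ALDH-positive cells, against 5.84 in ALDH-negative cells, a difference of -0.01. ALPI thus stood apart on the CD133-negative array alone. It has close relatives in the placental and germ cell phosphatases, which can share probe signal. ALPP, the placental form, differed by 0.80 (CD133) and 0.85 (ALDH), and was below the floor on all but the ALDH-positive array. ALPG, the germ cell form, differed by -0.51 and -0.16. The values of ALPI are uncertain for that reason.

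CUBN encodes cubilin, the receptor that takes up vitamin B12 bound to intrinsic factor in the ileum and filtered proteins in the kidney. It read 5.74 in CD133-positive cells, against 3.89 in CD133-negative cells (probe set 7932326). It read 4.72 in ALDH-positive cells, against 6.58 in ALDH-negative cells. CUBN lay above the floor on the brighter array of each sort and below it on the dimmer one, so the size of its differences, 1.85 and -1.86, is uncertain. Against the floor CD133-positive cells exceeded CD133-negative cells at least 1.69-fold. By the same measure, ALDH-positive cells held at least 3.02-fold less of it.

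The microvillus genes differed less between fractions than SI or DPP4 did. VIL1 encodes villin, which bundles actin in the core of the microvillus, and read 9.10 in CD133-positive cells, against 8.79 in CD133-negative cells (probe set 8048319). It read 8.45 in ALDH-positive cells, against 8.98 in ALDH-negative cells. Its differences were 0.30 and -0.53, and it was the only gene of the group whose lowest value was on the ALDH-positive array.

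CDHR2 and CDHR5 encode the protocadherins that join the tips of neighbouring microvilli. CDHR2 read 7.70 in CD133-positive cells, against 7.63 in CD133-negative cells, and 7.88 in ALDH-positive cells, against 8.51 in ALDH-negative cells (probe set 8110183). CDHR5 read 5.52 in CD133-positive cells, against 5.24 in CD133-negative cells, and 5.54 in ALDH-positive cells, against 6.11 in ALDH-negative cells (probe set 7945475). Both stood highest in ALDH-negative cells. The differences were 0.07 and -0.63 for CDHR2 and 0.28 and -0.57 for CDHR5, none at 2-fold.

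**Figure D1:**
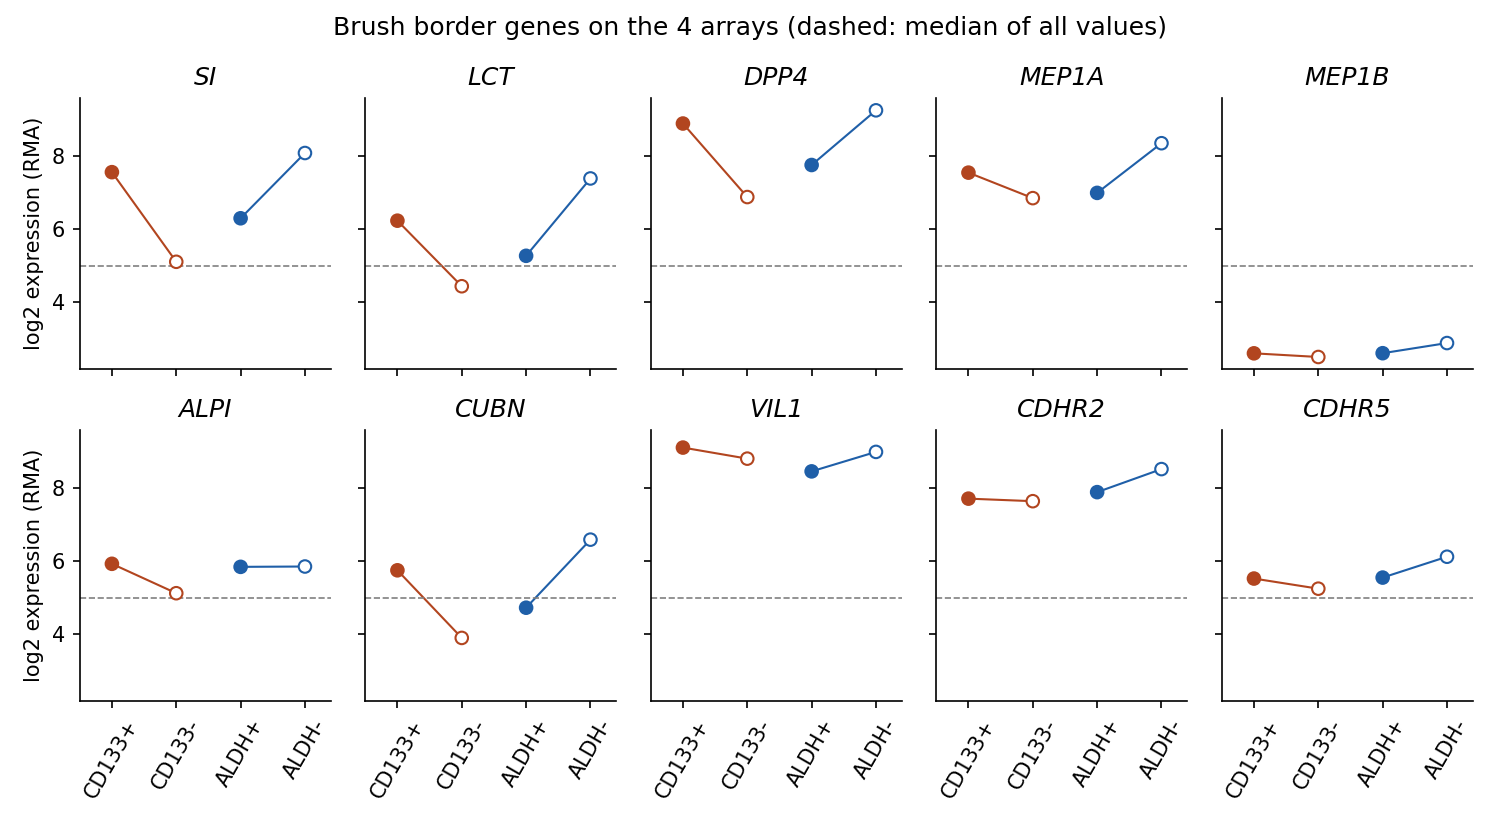
Log2 expression of each of the 10 genes (vertical axis) on the 4 arrays (horizontal axis), filled points for positive and open points for negative fractions, with lines joining the fractions of 1 sort and a dashed line at the floor of 4.98. SI, LCT, DPP4 and CUBN lie higher in CD133-positive than in CD133-negative cells and, in the other sort, lower in the ALDH-positive fraction, while MEP1B stays below 2.9 throughout.

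Counted together, 4 of the 10 genes (SI, LCT, DPP4 and CUBN) passed 2-fold upwards in CD133-positive cells and none passed it downwards. Among the 11591 genes above the floor there, 0.716% passed 2-fold upwards and 0.164% downwards. In ALDH-positive cells 5 of the group (those 4 and MEP1A) passed 2-fold downwards and none upwards, where 1.3% of 11879 genes went that far down and 0.278% that far up. Where any value under the floor was replaced by the floor, 3 genes stayed past 2-fold in the CD133 sort, CUBN being the exception. In the ALDH sort 5 stayed. The shares among the genes above the floor in each sort were then 0.544% and 0.977%. Nothing is read from these shares, because the same differences chose the genes.

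All 10 differences were above 0 in the CD133 sort and all 10 below 0 in the ALDH sort, MEP1B and the near-zero value of ALPI included. The count was 9 genes after a second quantile normalization, where ALPI turned, and 9 after raising to the floor, where MEP1B became 0. This pair of directions was shared by 21.9% of the 11293 genes that passed the floor in each sort. The group's median difference was 0.75 for CD133, against -0.01 over all genes, and -0.99 for ALDH, against 0.03 over all genes. Within the group SI, LCT, DPP4 and CUBN held the wide differences, with MEP1A in the ALDH sort, and VIL1, CDHR2 and CDHR5 the narrow ones. These are levels in RNA of whole fractions, in which fewer expressing cells and less RNA per cell cannot be told apart.

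**Figure D2:**
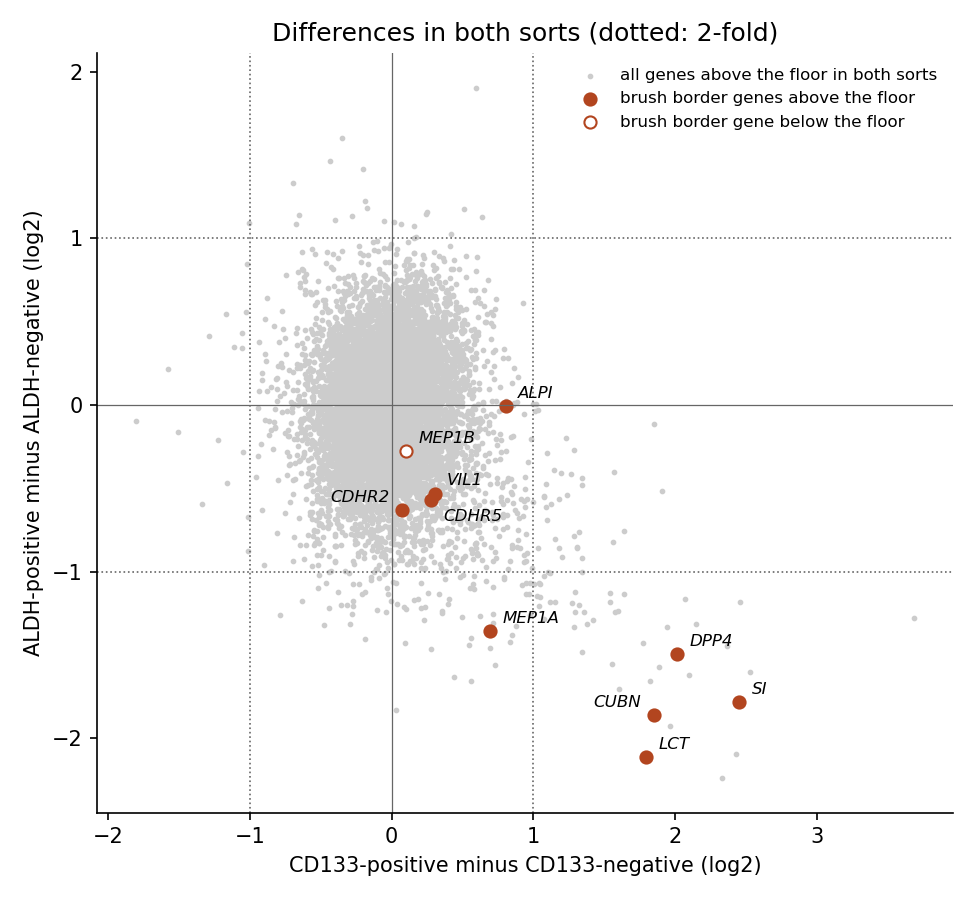
Difference of CD133-positive minus CD133-negative cells (horizontal axis, log2) against ALDH-positive minus ALDH-negative cells (vertical axis, log2) for the 10 genes (red) and the 11293 genes that passed the floor in each sort (grey), with dotted lines at 2-fold. SI, LCT, DPP4 and CUBN lie in the lower right corner, MEP1A below -1 on the vertical axis only, and VIL1, CDHR2 and CDHR5 near the main cloud.

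The order of the arrays was the same for SI, LCT, DPP4, MEP1A and CUBN: ALDH-negative cells stood highest, then CD133-positive, then ALDH-positive, and CD133-negative cells lowest. This order held for 5 of the 10 genes and for 4.22% of the 12177 genes that reached the floor on at least 1 array. Its last 2 places are not settled for CUBN, whose ALDH-positive and CD133-negative values, 4.72 and 3.89, both lay below the floor. For MEP1A those 2 values were only 0.14 apart. ALDH-negative cells were highest for 8 of the 10, beside 24.2% of the 12177 genes, and CD133-negative cells lowest for 9, beside 21.1%. Both counts of the group include MEP1B, which was below the floor on every array and so is not among the 12177. PROM1 differed from the order of SI at the top, with CD133-positive cells above ALDH-negative cells.

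Arrays of different sorts can also be set side by side, with the limit that the sort and anything else that differed between the runs cannot be told apart. All 10 values were higher in ALDH-negative than in CD133-negative cells, that of MEP1B below the floor, beside 43.3% of all genes above the floor. The median of these differences was 1.19, against -0.01 over all genes, and they were widest for SI at 2.97, LCT at 2.95, CUBN at 2.69 and DPP4 at 2.37. The CD133-negative values of LCT and CUBN lay below the floor, and raising these to it, a choice made with the values known, gave 2.40 for LCT and 1.59 for CUBN. The positive fractions were closer together. CD133-positive cells stood above ALDH-positive cells for 7 of the 10 genes, beside 57.5% of all genes above the floor. The median was 0.60, against -0.01 over all genes. SI differed by 1.26 there, DPP4 by 1.13 and CUBN by 1.02 (0.76 with its ALDH-positive value raised to the floor), while CDHR2 went slightly the other way at -0.18.

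**Figure D3:**
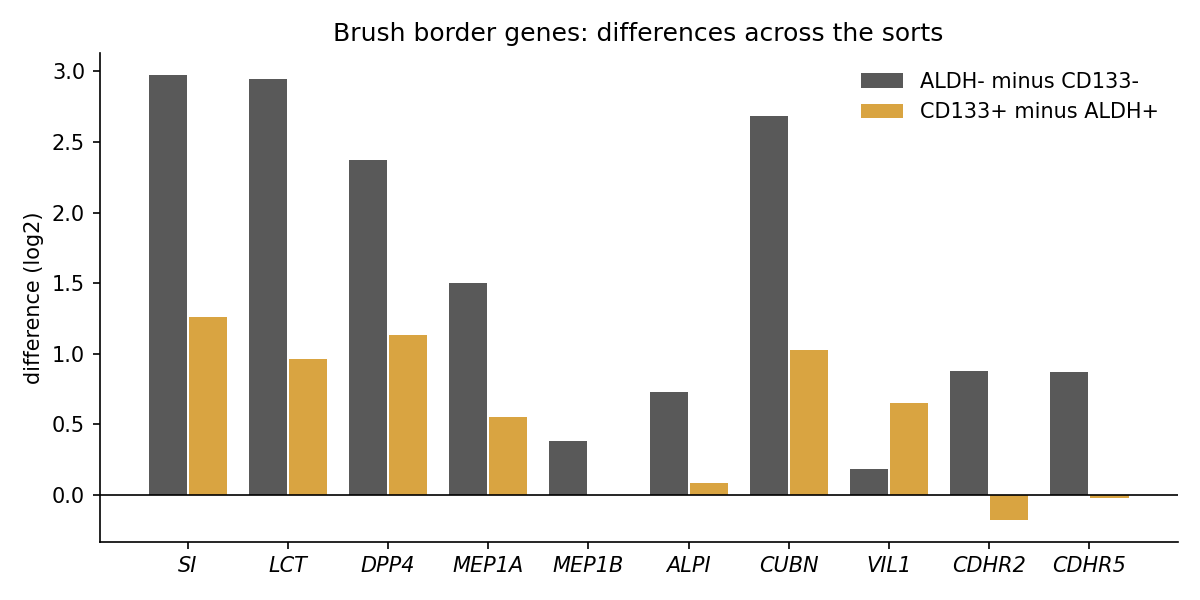
Bars give, for each gene (horizontal axis), the log2 difference of ALDH-negative minus CD133-negative cells (dark) and of CD133-positive minus ALDH-positive cells (yellow), each from 2 arrays. The dark bars are above 0 for all 10 genes and reach 2.97 for SI, and the yellow bars stay at or below 1.26.

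Genes with the most similar course were sought by the root mean square distance between centred log2 values over the 4 arrays, among the 12177 genes that reached the floor. The nearest to SI were the amino acid transporter subunit SLC7A7 at 0.13, the superoxide-producing oxidase NOX1 at 0.15 and the liver-intestine cadherin CDH17 at 0.19. CDH17 was also the nearest to DPP4, at 0.05, followed by the iron oxidase HEPH at 0.09 and the annexin ANXA1 at 0.10. Some of these were dim in CD133-negative cells, where SLC7A7 read 4.40, NOX1 4.67 and HEPH 3.07, all below the floor. HEPH was also below it in ALDH-positive cells, at 4.13. The nearest to CUBN were LRRC66 at 0.04, the protein disulfide isomerase AGR2 at 0.07 and the glutathione transferase GSTA2 at 0.12, which has close paralogs. LRRC66 was below the floor on 3 of the 4 arrays and CUBN, AGR2 and GSTA2 on 2 each, so this likeness rests largely on dim values. LCT had LRRC66 at 0.12, CUBN at 0.12 and AGR2 at 0.18. Among all searched genes CUBN was therefore the second nearest to LCT and LCT the fourth nearest to CUBN.

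MEP1A kept other company. Its nearest genes were the phosphodiesterase PDE3A at 0.05, the canalicular efflux pump ABCC2 at 0.06 and the sulfate transporter SLC26A2 at 0.06. The other brush border gene nearest to it, CDHR5, came only at rank 247 with a distance of 0.32. With 4 arrays such nearness describes these arrays only.

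The remaining brush border hydrolases mostly lay below the floor. Of 15 listed, 10 were measured and 2 reached the floor on any array, and none was at least 2-fold apart in either sort. ANPEP, the aminopeptidase N that clips amino acids from peptide ends, read 8.37 in CD133-positive cells, against 8.21 in CD133-negative cells, and 8.32 in ALDH-positive cells, against 9.11 in ALDH-negative cells. Its difference of -0.80 in the ALDH sort was the widest of the list, and it had the same order of arrays as SI. ENPEP, which removes acidic residues, differed by -0.44 and -0.58 but stayed below the floor, as did XPNPEP2 in the CD133 sort at 0.55. MGAM, the maltase partner and close relative of SI, lay between 4.13 and 4.56 on the 4 arrays, below the floor. The list medians were 0.18 (CD133) and -0.00 (ALDH).

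Of the other microvillus genes, MYO1A alone was past 2-fold, in the ALDH sort. Of 15 listed genes 13 were measured and 12 reached the floor on at least 1 array. All 13 were below 0 in the ALDH sort, with a median of -0.40, where 8478 of all 18377 genes were below 0. In the CD133 sort 10 were above 0, with a median of 0.13, where 9007 of all genes were. TMIGD1 was below the floor on all arrays. MYO1A encodes the myosin that links the actin core to the membrane, and read 6.40 in CD133-positive cells, against 5.67 in CD133-negative cells, and 5.60 in ALDH-positive cells, against 7.16 in ALDH-negative cells. MYO1A was thus 2.95-fold lower in ALDH-positive cells, and 0.73 higher in CD133-positive cells on the log2 scale. Next came the related myosin MYO1D, with -0.92 in the ALDH sort. Other genes of the tip complex that binds CDHR2 and CDHR5 differed less, with 0.25 and -0.20 for USH1C and 0.39 and -0.53 for ANKS4B. The myosin MYO7B differed by 0.32 and -0.29, but was below the floor on all but the ALDH-negative array.

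The partners of cubilin were measured for 5 of 6 genes, without AMN, its membrane anchor. DAB2, the adaptor that draws the receptor into coated pits, read 7.64 in CD133-positive cells, against 6.93 in CD133-negative cells, and 6.86 in ALDH-positive cells, against 7.95 in ALDH-negative cells, or 2.13-fold lower in ALDH-positive cells. LRP2, the megalin co-receptor, differed by 0.61 and -0.72, and TCN2, the plasma carrier of vitamin B12, by 0.61 and -0.71. These 3 went the way of CUBN. The chaperone LRPAP1 differed by -0.00 and 0.31, and intrinsic factor, CBLIF, lay below the floor. The medians were 0.61 and -0.71.

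Of the nutrient carriers and lipid proteins of enterocytes, 14 were measured, and 6 of these were below the floor on every array. In the CD133 sort 9 were above 0, with a median of 0.17, and in the ALDH sort 8 were below 0, with a median of -0.14, beside the counts over all genes given above. SLC15A1, which carries di- and tripeptides, alone was past 2-fold, in the ALDH sort. It read 5.67 in CD133-positive cells, against 5.39 in CD133-negative cells, and 5.30 in ALDH-positive cells, against 6.76 in ALDH-negative cells, a difference of -1.46. The glucose carrier SLC5A1 and the fatty acid carrier FABP2, which are abundant in enterocytes, were below the floor on all arrays, at most 3.77 and 2.45.

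Of 8 listed transcription factors known to act on brush border genes, 7 were measured, without HNF4A. All 7 reached the floor on every array. HNF4G, a nuclear receptor of the gut and kidney, read 7.02 in CD133-positive cells, against 6.47 in CD133-negative cells, and 6.24 in ALDH-positive cells, against 7.68 in ALDH-negative cells. It was 2.71-fold lower in ALDH-positive cells and 1.46-fold higher in CD133-positive cells. CDX2, the master regulator of intestinal identity, read 8.53 in CD133-positive cells, against 7.63 in CD133-negative cells, and 7.90 in ALDH-positive cells, against 8.58 in ALDH-negative cells. CDX2 was short of 2-fold in both sorts, at 0.90 and -0.68, and had the array order of SI. The related factor CDX1 did not: it differed by 0.35 and 0.42 and was highest in ALDH-positive cells. GATA4 differed by -0.15 and 0.03 and GATA6 by 0.26 and 0.10, so the factors did not share a direction. The list medians were 0.26 and 0.03.

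Paralogs of the 10 genes did not follow them as a group. Of 21 measured paralogs none was at 2-fold in either sort, and the medians were -0.09 (CD133) and 0.02 (ALDH). The widest were ALPP, given above, and the severing protein SCIN at 0.24 and -0.73, which stayed below the floor. FAP, the nearest relative of DPP4, lay between 2.23 and 2.62, below the floor, and DPP8 and DPP9 differed by -0.15 and -0.09 in the CD133 sort. Among the relatives of VIL1, GSN differed by -0.30 and -0.09, VILL by 0.20 and -0.38 and SVIL by 0.60 and -0.35.

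**Figure D4:**
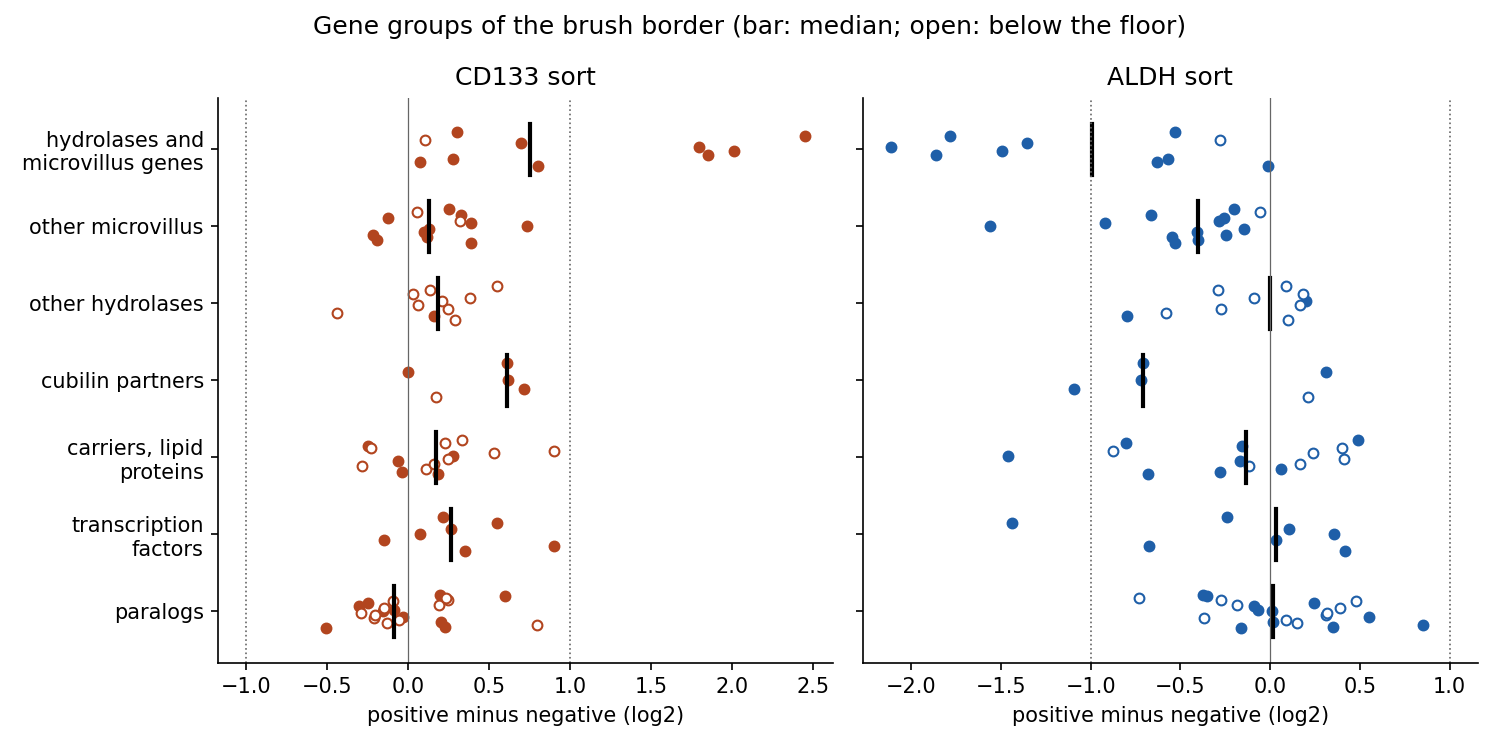
Each point is a gene, placed by its log2 difference of positive minus negative fraction (horizontal axis) in the CD133 sort (left) and the ALDH sort (right), for the 10 genes and 6 related lists (rows). Black bars mark medians, open points genes below the floor and dotted lines 2-fold. The medians of the top row are 0.75 and -0.99, and those of the other microvillus genes 0.13 and -0.40.

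Markers of other cell types were followed beside these results. Of kidney markers, of the proximal tubule and of the nephron lineage (PAX2 and PAX8), 7 were measured. Of these, 4 reached the floor in CD133-positive cells, against 0 in CD133-negative cells, and 6 in ALDH-positive cells, against 2 in ALDH-negative cells. Over all 18377 genes, 11253 reached it in CD133-positive cells, against 11013 in CD133-negative cells. In the ALDH sort 11433 did in ALDH-positive cells, against 11168 in ALDH-negative cells. Most markers that crossed the floor in the CD133 sort lay near it, as PAX2 did at 5.05, against 4.74 in CD133-negative cells. PAX8 stood further above it, at 5.45, against 4.93 in CD133-negative cells. Its difference was 0.51, or 0.46 with the CD133-negative value raised to the floor. The summed linear signal of the 7 markers was 212 in CD133-positive cells, against 184 in CD133-negative cells, and 248 in ALDH-positive cells, against 191 in ALDH-negative cells. It was higher in the positive fraction of both sorts, which is the direction of the brush border genes in the CD133 sort only. Most of these kidney values lay near or below the floor, so the direction of the sum is uncertain. SLC22A8, an organic anion carrier, was the only marker of that list at 2-fold, with 1.06 in the ALDH sort. Its ALDH-negative value was under the floor, and raised to the floor the difference was 0.09. The summed signal of 6 leukocyte markers was 420 in CD133-positive cells, against 533 in CD133-negative cells, and 475 in ALDH-positive cells, against 414 in ALDH-negative cells. LYZ, the lysozyme gene, was past 2-fold with 1.33 in the ALDH sort and decided both sums. Without it the other 5 markers summed to 237 in CD133-positive cells, against 236 in CD133-negative cells, and 258 in ALDH-positive cells, against 327 in ALDH-negative cells, a sum added after the values were seen. Taken singly, 5 of the 6 leukocyte markers were above 0 in the ALDH sort and 1 below, with a median of 0.27. In the CD133 sort 3 were above 0 and 3 below. The marker below 0 in the ALDH sort was CD68, of macrophage lysosomes, at -0.77. The lower ALDH-positive sum without LYZ thus came from CD68 alone. The defining gene PTPRC lay between 2.45 and 2.64, far below the floor.

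The 8 fibroblast markers summed to 299 in CD133-positive cells, against 262 in CD133-negative cells, and 308 in ALDH-positive cells, against 302 in ALDH-negative cells. The 8 endothelial markers summed to 186 in CD133-positive cells, against 154 in CD133-negative cells, and 205 in ALDH-positive cells, against 207 in ALDH-negative cells. The endothelial sums rest largely on dim values, since 4 of the 8 reached the floor in ALDH-negative cells and 2 on each other array. The widest fibroblast differences were 0.40 for COL1A2 and 0.39 for COL3A1, in the CD133 sort. All 8 endothelial markers were above 0 in the CD133 sort, with a median of 0.17, though only 2 of them reached the floor there. In the ALDH sort 4 were above 0 and 4 below, with a median of 0.12. The widest in that sort were PECAM1 at -0.93, CDH5 at -0.67 and CLDN5 at 0.52. PECAM1 and CDH5 were dim on the ALDH-positive array, at 4.54 and 4.70, both under the floor. With the floor in place of those values, the differences became -0.48 for PECAM1 and -0.38 for CDH5. CLDN5 also differed by 0.47 in the CD133 sort. No array gave a value of 0, and DCN, EMCN and KDR stayed at or below 3.49 on all 4. Of 10 cell division genes, 9 were above 0 in the ALDH sort, with a median of 0.68, where 9894 of all 18377 genes were above 0. RRM2 alone was past 2-fold, with 1.23. Their summed signal was 2306 in ALDH-positive cells, against 1609 in ALDH-negative cells, and 2550 in CD133-positive cells, against 2593 in CD133-negative cells. The part of any of these markers in the brush border differences was not tested.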

How the data were processed

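RNA of 4 sorted Huh7 fractions, prepared by Trizol extraction and biotin labelling (per the labels' protocols), was measured on 1 array each. The log2 values deposited by the authors come from RMA, a robust averaging over a gene's probes, as the submitters' processing notes say. That they are log2 was judged by their range, 0.556 to 13.5, and the software version and genome build are not given in the sources used here. RMA pulls arrays towards 1 distribution and compresses differences of dim probes.

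Of 28869 probes, 19310 had exactly 1 symbol in the platform annotation, 1752 had several and 7807 were not listed. A gene took its probe with the highest mean, giving 18377 genes. All 10 genes of the group matched a RefSeq gene identifier. Differences are positive minus negative fraction. A gene counted at 2-fold if either array of that sort was at or above the floor of 4.98, and a fold given as at least uses the floor for the dimmer array. No test was run, since 1 array per group gives no spread.

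The genes and lists were chosen with earlier results of these data known. Named were all 10 genes, list members at 2-fold or else those with the largest differences, and for each gene spanning over 1 log2 unit its 3 nearest genes. CDX1, CDX2, GATA4, GATA6, LRP2, TCN2, LRPAP1, CBLIF, MYO1D, TMIGD1, CLDN5, CD68, USH1C, ANKS4B, MYO7B, SLC5A1, FABP2, MGAM, XPNPEP2, TTR, PAX2, PAX8 and the paralogs of DPP4 and VIL1 were named after their values were seen. Some transcription factors and a motif are not reported here. Promoters came from a RefSeq table of GRCh38.p14. Alternatives were another fold threshold, other floors, values raised to the floor, means over probes, centring, a second quantile normalization and loess (span 0.4). The difference code was tested on simulated data. Python 3.11.15, pandas 2.3.3 and statsmodels 0.14.6 were used.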

Additional observations from a re-analysis of the deposited data

Results flagged for a closer look

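The differences of the 10 genes were above 0 in the CD133 sort and below 0 in the ALDH sort, on 1 array per fraction, but those of MEP1B and the ALDH value of ALPI have no settled sign. Whether the sorts differ was not tested. The CD133 difference minus the ALDH difference was 4.23 for SI, 3.91 for LCT, 3.71 for CUBN, 3.50 for DPP4 and 2.05 for MEP1A. It was 0.85 for CDHR5, 0.83 for VIL1, 0.81 for ALPI, 0.70 for CDHR2 and 0.38 for MEP1B. CUBN was below the floor on the dimmer array of both sorts and LCT on that of the CD133 sort. Raised to the floor, an alternative added after the values were seen, CUBN gave 2.35 and LCT 3.36, both below DPP4. The value of ALPI rests on the CD133 sort alone, and MEP1B was below the floor on all arrays.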

How the results depend on the processing

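No paired analysis was possible because each group has 1 array. The number of genes past 2-fold upwards in CD133-positive cells was 2 with a floor at the upper quartile of the values, against 4, since LCT and CUBN did not reach that floor there. Under the other alternatives run, the counts at 2-fold stayed within 1.5 times and the group medians within 0.1. SI, DPP4 and MEP1A kept their direction under all of them, from 2.36 to 2.51 and -1.81 to -1.73 for SI, and so did LCT, CUBN, VIL1, CDHR2 and CDHR5. With values raised to the floor, the CD133 difference was 1.25 for LCT and 0.76 for CUBN. The counts of the other microvillus genes, 10 above 0 and 13 below 0, were the same after centring, quantile normalization and loess. The ALDH difference of ALPI ranged from -0.04 to 0.01 and so has no settled sign. The number of arrays and the dimness of MEP1B, CUBN and LCT limit what these values can show.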
